A study of Mus musculus with 19 samples.

Results

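Mitochondrial ribosomal proteins are the protein components of the ribosome inside mitochondria, and 76 of the 12629 genes measured in these GFP-sorted cells of sensory ganglia encode them. They were chosen by name alone: protein-coding genes whose symbol starts with Mrpl or Mrps followed by a digit. Of these, 48 carry an Mrpl symbol, the name of large-subunit proteins, and 28 an Mrps symbol, the name of small-subunit proteins. Structural groups were assigned from general knowledge of the particle. The large subunit has 30 members with a bacterial homologue and 19 found only in mitochondria, and the small subunit has 16 and 10. Mrps18a is counted among the 19 despite its symbol. The remaining member is Mrps36, which kept its name but is now placed in the 2-oxoglutarate dehydrogenase complex. Another 4 genes with such symbols are annotated as pseudogenes and were left out.

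The libraries hold RNA of dorsal root ganglion (DRG) cells that were sorted for GFP, which the study calls neurons. All animals received AAV5 into DRGs 8 weeks before the cells were taken, so every group, controls included, carries virus and GFP. GFP-naive (5 libraries) and GFP-crush (4 libraries) received AAV5-CMV-fGFP, whereas α9k1-naive (6 libraries) and α9k1-crush (4 libraries) received AAV5-CAG-α9-V5, which encodes α9 integrin, together with AAV5-CMV-kindlin1-GFP. In the crush groups the dorsal roots of the injected ganglia were also crushed, and in the naive groups they were not. The methods name adult male Lewis rats and the sample labels C57BL/6 mice, and the reads were aligned to the mouse genome. The promoters are not specific to neurons, and the sorting gate was GFP.

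Mitochondria keep a small genome that encodes a few subunits of the respiratory chain and the RNAs of their own ribosome. The mitochondrial ribosome translates these few messages, and all its proteins are encoded in the nucleus, made in the cytosol and imported. The small subunit binds the messenger RNA and decodes it, and the large subunit joins the amino acids. Neurons with long axons, such as those of the DRG, depend on mitochondria along the whole axon.

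Libraries held between 36.4 and 87.6 M (mega) read pairs, 47.5% to 54.1% of reads aligned, and 3.87% to 4.05% of aligned bases differed from the mouse reference. Fermt1, the gene of kindlin-1, was between 0.42 and 0.80 log2 units in the GFP libraries and between 5.18 and 7.73 in the α9k1 libraries, so this transgene matched the virus label of each library. Itga9, the gene of α9 integrin, ranged from 1.77 to 2.40 in GFP-naive and from 2.38 to 5.16 in α9k1-naive, where the ranges overlap, and from 0.90 to 1.92 in GFP-crush and 5.53 to 7.51 in α9k1-crush. Neither gene checks the crush labels. All 10 markers of sensory neurons were measured, with a summed level of 12.92 to 13.66 log2 units over the libraries. Markers of satellite glia, the cells that wrap DRG neurons, summed to between 14.11 and 16.78, and Apoe was the highest of them. Genes without a row are Pecam1, Cdh5 and Kdr (endothelial cells), Pdgfra (fibroblasts) and Cx3cr1 (macrophages).

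The upstream sequences of 4 small-subunit genes are shown because they lie before the genes on which the comparisons below turn and because no exon of the annotation overlaps them. They are the 150 bases before the annotated start in RefSeq (mouse GRCm38.p6, 5′ to 3′ on the gene's strand), and capitals mark a match to a searched motif. In the fit with library metrics as covariates, Mrps2, Mrps22 and Mrps17 had the lowest log2FC of the small subunit in α9k1-naive against GFP-naive. By difference of means, Mrps16, Mrps12 and Mrps6 were lower than these. Mrps12 rose after crush with GFP alone.
Mrps2, chr2:28467916-28468065 (+): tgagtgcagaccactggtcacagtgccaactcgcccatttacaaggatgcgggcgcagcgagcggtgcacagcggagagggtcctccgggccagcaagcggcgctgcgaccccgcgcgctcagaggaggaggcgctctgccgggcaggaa
Mrps22, chr9:98601680-98601829 (-): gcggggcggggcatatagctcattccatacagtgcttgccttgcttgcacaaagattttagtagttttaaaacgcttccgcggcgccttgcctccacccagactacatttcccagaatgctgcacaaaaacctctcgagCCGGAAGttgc
Mrps17, chr5:129715347-129715496 (+): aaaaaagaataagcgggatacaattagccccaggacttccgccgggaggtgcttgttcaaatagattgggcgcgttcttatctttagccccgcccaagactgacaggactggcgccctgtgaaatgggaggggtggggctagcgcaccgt
Mrps12, chr7:28741822-28741971 (-): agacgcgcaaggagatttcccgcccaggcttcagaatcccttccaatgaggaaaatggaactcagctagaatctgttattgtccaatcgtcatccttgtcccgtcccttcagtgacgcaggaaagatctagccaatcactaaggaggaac

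Promoters with 250 bases before the start were found for 67 members, and Mrpl4, Mrpl13, Mrpl15, Mrpl19, Mrpl38, Mrpl54, Mrps28, Mrps34 and Mrps35 had none in the table. Motifs of 4 factors that are known to act on many housekeeping and mitochondrial genes were searched on both strands. The NRF1 letters GCATGCGC were present in 8 of 67 members (11.9%) and in 5.14% of 8230 protein-coding genes of the same table. The ETS letters CCGGAAG, the core bound by the GABP factors, were present in 17 members (25.4%) against 15.6%, and in Mrps22 they lie 11 bases before the start. The YY1 letters AAGATGGC were present in 4 members (5.97%) against 2.39%, and the E-box CACGTG in 5 members (7.46%) against 10.3%. NRF1 matches on opposite strands can overlap each other, as they do before Mrpl32 and Mrpl39, and a gene was counted once for a motif. Among the 20 members with a promoter that fell in α9k1-naive and the other 47, the NRF1 letters were present in 5 and 3, the ETS letters in 6 and 11, the YY1 letters in 2 and 2, and the E-box in 0 and 5. These differences were not tested.

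A further shared feature was position. Of the 76 genes, 11 (14.5%) start within 1000 bases of the start of another protein-coding gene that runs the opposite way, compared with 7.88% of the 10750 protein-coding genes. These neighbours include Sars2, the mitochondrial seryl-tRNA synthetase, whose start lies 172 bases from that of Mrps12, and Psma2, a proteasome subunit, 205 bases from that of Mrpl32. Fau, which encodes a cytosolic ribosomal protein, starts 137 bases from Mrpl49. Members lie on 17 chromosomes, with 10 on chromosome 11. The exons of 31 members overlap those of another gene, 26 of them on the other strand. The counting was not stated to use strand, so reads of such pairs, for example Mrps25 with Nr2c2, Mrps34 with Nme3 and Mapk8ip3 or Mrps11 with Mrpl46, cannot be told apart.

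Values are log2 expression per gene, adjusted by the authors for gene length and depth, so levels can be set beside each other across genes only on that adjusted scale. Mrpl17 was highest, with a mean of 8.53 over the 19 libraries, followed by Mrpl33 (7.68) and Mrpl41 (7.40). Mrpl51 (2.33), Mrpl43 (2.62) and Mrpl47 (3.28) were lowest. Mrpl17 measured 8.63, 8.62, 8.76, 8.54 and 8.57 in GFP-naive, between 8.14 and 8.47 with a median of 8.25 in α9k1-naive, 8.88, 8.83, 8.85 and 8.70 in GFP-crush, and 8.50, 8.55, 8.46 and 8.62 in α9k1-crush. By group mean the order was GFP-crush, GFP-naive, α9k1-crush and α9k1-naive, but the highest α9k1-crush library lay above the lowest GFP-naive library.

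Mrpl41, a large-subunit protein specific to mitochondria, measured 7.42, 7.39, 7.64, 7.30 and 7.65 in GFP-naive, between 7.02 and 7.56 (median 7.31) in α9k1-naive, 7.65, 7.56, 7.71 and 7.74 in GFP-crush, and 7.19, 7.24, 6.97 and 7.26 in α9k1-crush. At the low end, Mrpl51 measured 2.55, 2.59, 2.73, 2.13 and 3.11 in GFP-naive, between 1.86 and 2.45 (median 2.12) in α9k1-naive, 3.39, 2.72, 2.88 and 1.84 in GFP-crush, and 1.73, 2.09, 2.0 and 1.91 in α9k1-crush. Its libraries were widely spread in GFP-crush (SD 0.647), and GFP-crush overlapped each other group. Mrpl43 measured 2.51, 2.53, 2.89, 2.85 and 2.45 in GFP-naive, between 1.88 and 2.72 (median 2.31) in α9k1-naive, 3.13, 3.46, 3.04 and 2.94 in GFP-crush, and 2.54, 2.50, 2.42 and 2.72 in α9k1-crush. Mrpl47 measured 3.67, 3.45, 3.41, 3.15 and 3.24 in GFP-naive, between 2.48 and 3.47 (median 2.77) in α9k1-naive, 3.81, 3.60, 3.41 and 3.79 in GFP-crush, and 3.30, 3.37, 3.47 and 3.36 in α9k1-crush. Both were highest on average in GFP-crush.

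Over all 76 members, the median was 6.12, 6.09, 6.24, 6.12 and 6.20 in the GFP-naive libraries. It was 5.67, 5.81, 5.78, 5.82, 5.81 and 6.07 in α9k1-naive. It was 6.36, 6.37, 6.35 and 6.29 in GFP-crush and 5.83, 5.88, 5.70 and 5.85 in α9k1-crush. No α9k1 library reached the lowest GFP library of the same condition, and the GFP-crush libraries were above all the others. The median over all 12629 genes stayed between 4.30 and 4.48 in every library. The plot of list medians by library shows Mrpl and Mrps genes side by side. Among uninjured libraries the Mrpl median averaged 5.91 ± 0.075 (SD, n = 5) with GFP and 5.52 ± 0.096 (SD, n = 6) with α9k1. Among crush libraries it averaged 6.05 ± 0.051 (SD, n = 4) with GFP and 5.65 ± 0.077 (SD, n = 4) with α9k1. The Mrps median averaged 6.45 ± 0.045, 6.12 ± 0.134, 6.62 ± 0.034 and 5.97 ± 0.113 in the same order.

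**Figure D1:**
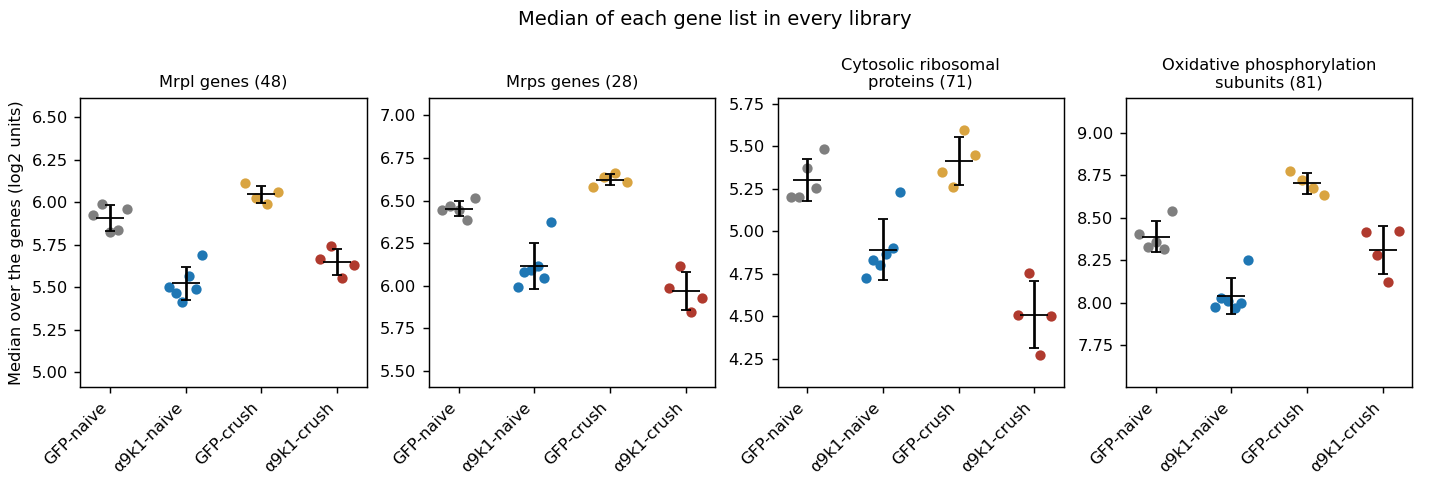
Median over each gene list (y axis, log2 units, same span of 1.7 units in each panel) in every library; points are libraries, horizontal bars and whiskers the mean and SD of a group. Mrpl and Mrps medians of α9k1 libraries are below those of GFP libraries of the same condition, and the highest α9k1-naive median of the 76 genes is 6.07.

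The first comparison asked how sorted cells with α9k1 differed from those with GFP when no root was crushed. In α9k1-naive against GFP-naive, 23 of the 76 members fell and 1 rose (limma over all genes, 3 components of library metrics as covariates, adjusted p under 0.1). Among all genes 17.6% fell and 11.4% rose, against 30.3% and 1.32% of the members. The median log2FC of the members was -0.214, beside -0.080 over all genes, and the median SE of a member was 0.120. The members that fell came from all structural groups: 10 of 30 large-subunit genes with a bacterial homologue, 3 of 19 specific to mitochondria, 6 of 16 and 3 of 10 of the small subunit, and Mrps36. In bulk samples such as these, fewer cells of a type and less RNA per cell cannot be told apart. It took 1 library to move that number by more than 1.5 times: 14 fell once α9k1-naive replicate 6 was left out, and 15 once either GFP-naive replicate 4 or GFP-crush replicate 3 was. In these fits the share of all genes that fell was also lower, at 12.5%, 13.5% and 15.3%. With libraries set to the same median 15 members fell (19.7% against 13.7% of all genes), and with the GC and length trend removed 14 did (18.4% against 14.3%).

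Mrps2, a small-subunit protein with a bacterial homologue, measured 4.26, 3.79, 3.81, 4.49 and 4.2 in GFP-naive and 3.12 to 4.08 with a median of 3.75 in α9k1-naive. Replicate 6 was the lowest, and the groups overlapped. Its log2FC was -0.67 (SE 0.18, limma adjusted p = 0.016), but without that replicate it was -0.40 (limma adjusted p = 0.278). Mrps22, a small-subunit protein specific to mitochondria, measured 5.50, 5.34, 5.68, 5.65 and 5.58 in GFP-naive and 4.76 to 5.43 with a median of 5.01 in α9k1-naive. One α9k1-naive library exceeded the lowest GFP-naive library. The log2FC was -0.58 (SE 0.16, limma adjusted p = 0.0155), and -0.36 without α9k1-naive replicate 6 (limma adjusted p = 0.258).

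Mrps17, whose bacterial counterpart is an early protein of small-subunit assembly, measured 6.02, 6.17, 5.92, 6.32 and 6.20 in GFP-naive and 5.48 to 5.84 with a median of 5.68 in α9k1-naive. All α9k1-naive libraries were below all GFP-naive libraries, and the log2FC was -0.50 (SE 0.12, limma adjusted p = 0.0081). Mrpl35, a small protein of the large subunit with a bacterial homologue, measured 5.98, 5.97, 5.87, 5.95 and 6.02 in GFP-naive and 5.25 to 5.50 with a median of 5.45 in α9k1-naive. It was lower in 6 of 6 libraries, with a log2FC of -0.49 (SE 0.11, limma adjusted p = 0.00413). The calls of Mrps17 and Mrpl35 held whichever library was left out.

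The single member that rose was Mrpl33, a large-subunit protein. It measured 7.81, 7.47, 7.86, 7.84 and 7.96 in GFP-naive and 7.47 to 8.21 with a median of 7.66 in α9k1-naive, so the groups overlapped and the α9k1-naive mean (7.72) was below the GFP-naive mean (7.79). The fitted log2FC was 0.29 (SE 0.11, limma adjusted p = 0.0868), and it was -0.064 in a fit without the covariates. The call was lost in 11 of 19 fits that left out a library.

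**Figure D2:**
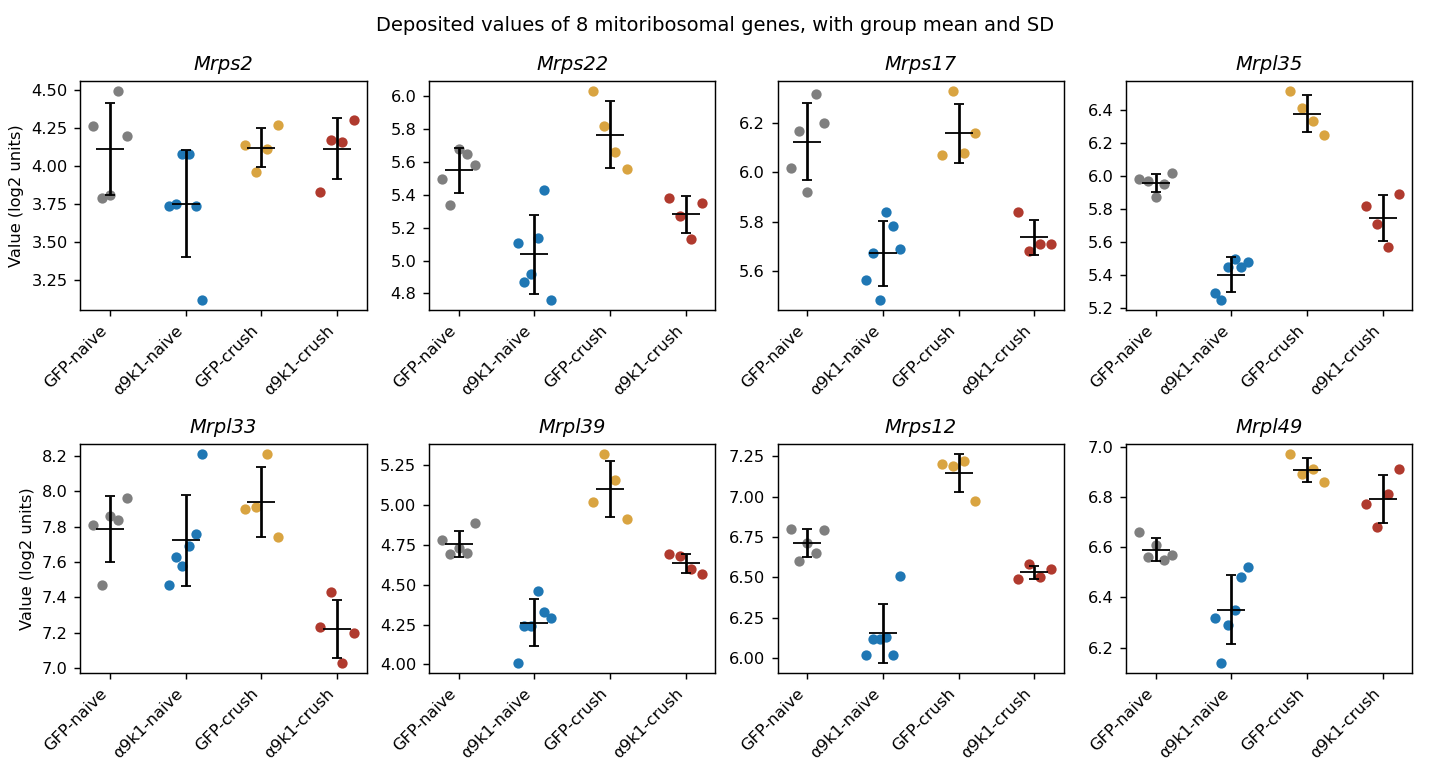
Deposited values (y axis, log2 units) of 8 genes in each library of the 4 groups, with the group mean and SD as a bar and whiskers. Mrps17, Mrpl35, Mrpl39, Mrps12 and Mrpl49 show no overlap between α9k1-naive and GFP-naive, while Mrps2, Mrps22 and Mrpl33 do.

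Counted on the deposited values with no covariate, 75 of 76 members had a lower mean in α9k1-naive than in GFP-naive, against 58.6% of all genes. All α9k1-naive libraries lay below all GFP-naive libraries in 22 members (28.9%), compared with 13.2% of all genes, and 0 members lay above (8.43% of all genes). The median difference of means was -0.321 for the members and -0.088 for all genes. Without the covariates, 60 members passed the test as lower and 1 as higher (29.5% and 16.5% of all genes).

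The second comparison asked the same of sorted cells with crushed roots. In α9k1-crush against GFP-crush, 0 of the 76 members passed in either direction with limma, and 6 had an unadjusted p under 0.05, all lower (Mrpl4, Mrpl32, Mrps6, Mrps12, Mrps24 and Mrps28). At that unadjusted threshold 3.87% of all genes were lower and 5.24% higher. By adjusted p 0.182% of all genes were called lower and 0.728% higher. The median log2FC of the members was -0.241 beside 0.012 for all genes, but -0.092 without GFP-crush replicate 2 and -0.473 without the covariates. The median SE of a member was 0.261. With the components in the fit the variance factor of this contrast was 3.11, against 0.5 without them, so the group difference and the components cannot be told apart well here. In the deposited values, 71 of 76 members had a lower mean in α9k1-crush, against 48.2% of all genes. All 4 α9k1-crush libraries were below all 4 GFP-crush libraries in 53 members (69.7%), compared with 20.8% of all genes, and 1 member was above (1.32% against 20%). Without the covariates 57 members were called lower and 2 higher, where 28.3% and 29.6% of all genes were.

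The members nearest to a call can be given by their libraries. Mrpl32, a large-subunit protein that is cut to its mature form inside mitochondria, measured 5.02, 5.10, 5.14 and 4.98 in GFP-crush and 4.51, 4.42, 4.10 and 4.30 in α9k1-crush. The groups did not overlap, and the log2FC was -0.53 (SE 0.22, limma adjusted p = 0.496). Mrps28, the counterpart of a bacterial protein that binds messenger RNA, measured 6.70, 6.95, 6.92 and 6.94 in GFP-crush and 6.24, 6.17, 5.94 and 5.87 in α9k1-crush, again without overlap, with a log2FC of -0.62 (SE 0.27, limma adjusted p = 0.511).

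On the other side, Mrps10 was the one member with all α9k1-crush libraries on top. It measured 6.14, 6.73, 6.30 and 6.52 in GFP-crush and 6.99, 6.77, 6.91 and 7.03 in α9k1-crush, and its log2FC was 0.29 (SE 0.30, limma adjusted p = 0.836). Mrpl18, a large-subunit protein whose bacterial counterpart binds 5S ribosomal RNA, measured 6.06, 5.55, 5.86 and 5.76 in GFP-crush and 5.44, 5.29, 4.96 and 5.32 in α9k1-crush. Every α9k1-crush library was below every GFP-crush library, yet the fitted log2FC was 0.28 (SE 0.28, limma adjusted p = 0.83). Without the covariates it was -0.55 (limma adjusted p = 0.00377).

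The 2 α9k1 comparisons share no library, although their fitted values share covariate effects that were estimated over all 19 libraries. In 20 members all α9k1 libraries were below all GFP libraries in both, which is 90.9% of the 22 with no overlap in naive and 37.7% of the 53 with no overlap after crush. Over all genes 5.81% were lower in both, which is 43.9% of the 1672 lower in naive. The 20 include Mrps12, Mrps17, Mrpl17, Mrpl32, Mrpl35 and Mrpl39. With the covariates, 53 members (69.7%) had a log2FC below 0 in both, compared with 34.6% of all genes. No member had an interaction (the α9k1 effect with crush minus that without) that passed with limma, whereas 1.35% of all genes passed as higher and 0.847% as lower. At an unadjusted p under 0.05 there were 0 members too, and 8.85% of all genes were higher and 5.13% lower. Without the covariates the interaction was called lower in 14 members and higher in 1 (16.1% and 23.3% of all genes).

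**Figure D3:**
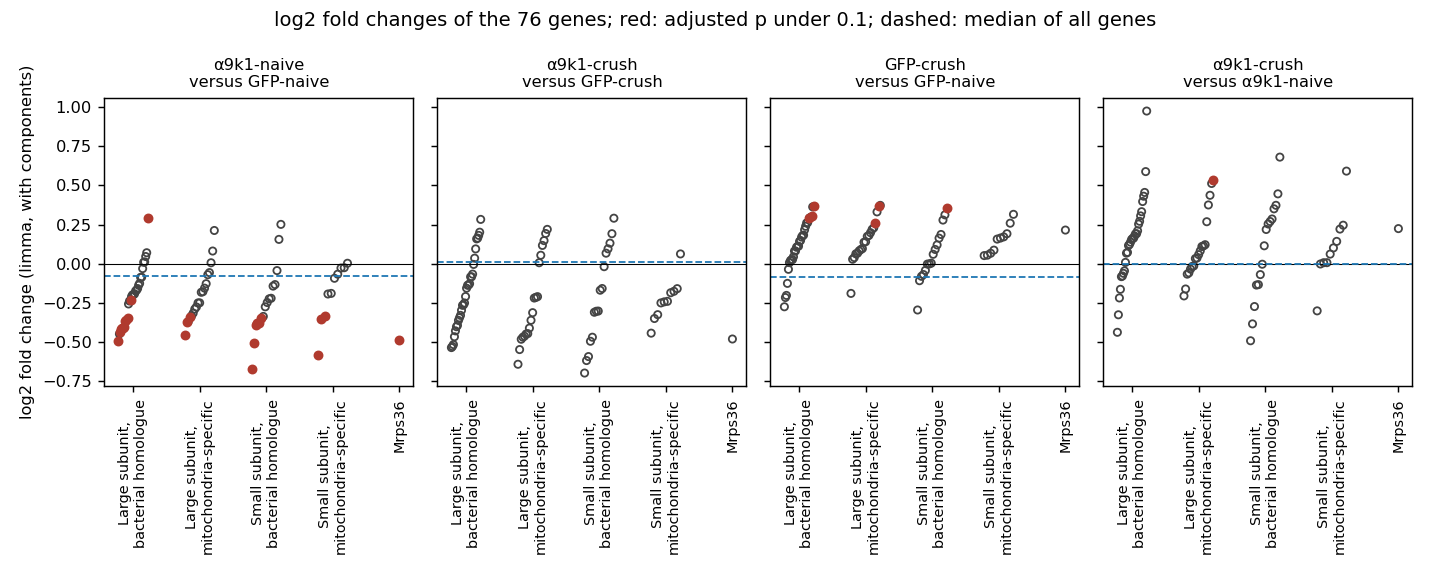
log2FC from limma with the covariates (y axis) of the 76 genes by structural group in the 4 comparisons; each point is a gene, red points passed an adjusted p under 0.1 and the dashed line is the median of all genes. In α9k1-naive versus GFP-naive 65 points are below 0 and 24 are red, and in α9k1-crush versus GFP-crush 57 are below 0 and none is red.

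The third comparison asked what crush did in sorted cells with GFP alone. In GFP-crush against GFP-naive, 6 members rose and 0 fell, whereas 7.39% of all genes rose and 15.7% fell. The 6 are 7.89% of the members, a share near that of all genes. The median log2FC was 0.129 beside -0.082 for all genes. Setting each library to the same median moved the median of all genes by 0.139. Relative to the median of all genes the members were 0.211 higher, 0.144 after quantile normalization and 0.163 with the GC and length trend removed. In the deposited values, GFP-crush libraries were above all GFP-naive libraries in 18 members (23.7% against 7.59% of all genes) and below in none (against 12.2%). The mean was higher in 70 members and lower in 6 (7.89%), where it was lower in 57.4% of all genes. Without the covariates 21 members were called higher and 0 lower (11% and 20.1% of all genes).

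Mrpl39, a large-subunit protein specific to mitochondria, measured 4.78, 4.69, 4.73, 4.70 and 4.89 in GFP-naive and 5.02, 5.32, 5.16 and 4.91 in GFP-crush. The groups did not overlap, and the log2FC was 0.37 (SE 0.12, limma adjusted p = 0.0502). Mrpl35 measured 6.51, 6.41, 6.33 and 6.25 in GFP-crush, above each of its GFP-naive values given earlier, and its log2FC was 0.37 (SE 0.11, limma adjusted p = 0.0328). Mrps12, which forms part of the decoding centre, measured 6.80, 6.60, 6.71, 6.65 and 6.79 in GFP-naive and 7.20, 7.19, 7.22 and 6.97 in GFP-crush. It was higher in 4 of 4 libraries, with a log2FC of 0.36 (SE 0.10, limma adjusted p = 0.0286).

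Mrpl21 measured 5.29, 5.38, 5.59, 5.67 and 5.61 in GFP-naive and 5.87, 6.03, 5.95 and 5.91 in GFP-crush. The log2FC was 0.31 (SE 0.12, limma adjusted p = 0.0955), and the call was lost in 12 of 19 fits that left out a library. The other 2 that rose were Mrpl4 and Mrpl49, with log2FC of 0.29 and 0.26. No members rose without GFP-crush replicate 2, 1 rose without GFP-naive replicate 2, and 3 rose without GFP-crush replicate 1, GFP-naive replicate 3 or α9k1-naive replicate 4, whereas 12 rose without α9k1-naive replicate 6. The share of all genes that rose was 4.14%, 3.52%, 4.55%, 5.56%, 6.33% and 7.93% in these fits, in the order given. With libraries set to the same median 28 members rose, where 14.5% of all genes did. In a fit of only the 2 groups compared 0 members rose, where 2.07% of all genes did, so the calls above were all lost.

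Members nearest to a fall were Mrpl18 and Mrpl36. Mrpl18 measured 5.62, 6.10, 5.97, 5.70 and 6.09 in GFP-naive, and its GFP-crush values overlapped them, with a log2FC of -0.27 (SE 0.13, limma adjusted p = 0.171). Mrpl36, a small large-subunit protein, measured 6.93, 6.88, 7.0, 7.0 and 6.92 in GFP-naive and 6.84, 6.66, 7.07 and 7.06 in GFP-crush, with a log2FC of -0.20 (SE 0.10, limma adjusted p = 0.196).

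The fourth comparison asked what crush did in sorted cells with α9k1. In α9k1-crush against α9k1-naive, Mrpl49 rose and no member fell, against 4.47% and 5.27% of all genes. Mrpl49, a large-subunit protein specific to mitochondria, measured 6.14 to 6.52 with a median of 6.33 in α9k1-naive and 6.77, 6.68, 6.81 and 6.91 in α9k1-crush. The log2FC was 0.53 (SE 0.17, limma adjusted p = 0.0907), and this call was lost in 14 of 19 fits that left out a library. In the GFP groups Mrpl49 measured 6.66, 6.56, 6.61, 6.55 and 6.57 without crush and 6.97, 6.89, 6.91 and 6.86 with it, so its libraries after crush were above those without crush in both settings. The same held for Mrpl19, Mrpl35 and Mrpl39, and for 2.64% of all genes.

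All α9k1-crush libraries were above all α9k1-naive libraries in 13 members (17.1% against 17.4% of all genes) and below in 4 (5.26% against 16.1%). The median log2FC of the members was 0.116 beside 0.001 for all genes, with a median SE of 0.215. Without the covariates 23 members were called higher and 8 lower (28.5% and 27.1% of all genes). Mrpl33 measured 7.23, 7.43, 7.03 and 7.20 in α9k1-crush, below each of its α9k1-naive libraries, with a log2FC of -0.44 (SE 0.21, limma adjusted p = 0.238). Mrps6, a small-subunit protein with a bacterial homologue, measured 6.26 to 6.90 with a median of 6.51 in α9k1-naive and 5.90, 6.20, 5.83 and 6.30 in α9k1-crush, with a log2FC of -0.49 (SE 0.25, limma adjusted p = 0.276). In the GFP groups Mrps6 had 7.13, 7.04, 6.97, 7.06 and 7.11 without crush and 7.08, 6.89, 7.26 and 7.38 with it, so GFP libraries of either condition were above the α9k1-crush libraries.

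**Figure D4:**
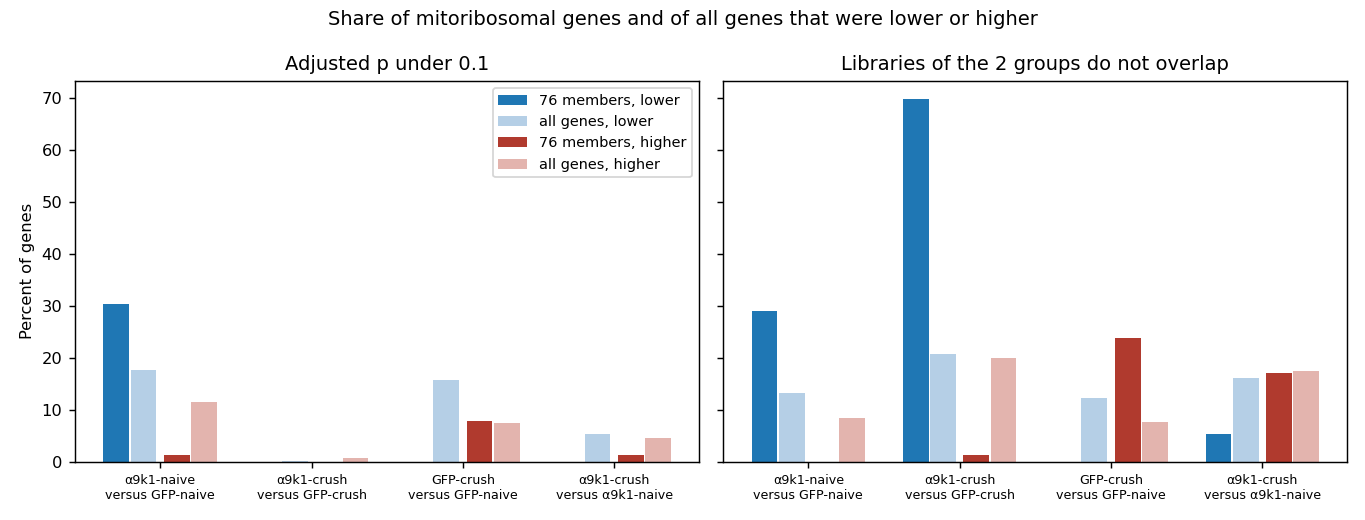
Percent of the 76 genes (dark bars) and of all 12629 genes (pale bars) that were lower (blue) or higher (red) in each comparison, by adjusted p under 0.1 on the left and by groups of libraries that do not overlap on the right. The largest gap is in α9k1-crush versus GFP-crush on the right, 69.7% against 20.8%.

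The ribosomal RNAs of the same particle were named after their values were seen. mt-Rnr1, the RNA of the small subunit, measured 10.08, 10.20, 10.04, 10.11 and 10.33 in GFP-naive and 8.45 to 9.26 with a median of 8.60 in α9k1-naive, and fell by 1.03 on the log2 scale (SE 0.14, limma adjusted p = 7.24e-05). After crush it measured 10.15, 9.70, 10.15 and 10.02 with GFP and 7.82, 7.93, 7.16 and 7.59 with α9k1, and fell by 1.58 (SE 0.29, limma adjusted p = 0.02). mt-Rnr2, the RNA of the large subunit, fell by 1.04 without crush (SE 0.14, limma adjusted p = 0.000121) and by 1.32 with crush (SE 0.31, limma adjusted p = 0.0905). Both RNAs were lower in every α9k1 library than in every GFP library of the same condition. These falls were fitted with the covariates, and the means of the deposited values lay further apart. For mt-Rnr1 the mean was 10.151 in GFP-naive, 8.684 in α9k1-naive, 10.005 in GFP-crush and 7.627 in α9k1-crush. For mt-Rnr2 it was 13.538, 12.201, 13.924 and 12.0 in the same order. In GFP-crush against GFP-naive, mt-Rnr1 fell by 0.39 (SE 0.14, limma adjusted p = 0.0667), although its libraries overlapped, and mt-Rnr2 had a log2FC of 0.14 (SE 0.14, limma adjusted p = 0.551), although every GFP-crush library was above every GFP-naive library. In α9k1-crush against α9k1-naive, mt-Rnr1 fell by 0.94 (SE 0.24, limma adjusted p = 0.036) in all libraries, and mt-Rnr2 had a log2FC of -0.14 (SE 0.26, limma adjusted p = 0.823) with overlapping libraries. The share of aligned bases that were ribosomal, a library metric that entered the covariates, also differed between the α9k1 and GFP libraries. Its median was 0.129% in GFP-naive, 0.032% in α9k1-naive, 0.111% in GFP-crush and 0.02% in α9k1-crush. In α9k1-naive it was 0.09% in replicate 6, which also had the highest mt-Rnr1 and mt-Rnr2, and 0.022% to 0.036% in the others. The part of ribosomal RNA content in these differences was not tested.

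Of the mitochondrially encoded messages that this ribosome translates, 8 of 13 had a row. In α9k1-naive 6 of the 8 fell (75%, against 17.6% of all genes), mt-Atp6 the most (log2FC -2.37, SE 0.57, limma adjusted p = 0.00843), although its libraries overlapped. With crush 4 fell (50% against 0.182%), with mt-Nd2 lowest among those called (-2.03, SE 0.43, limma adjusted p = 0.045). The median log2FC was -0.845 without crush and -1.42 with crush, beside -0.214 and -0.241 for the ribosomal proteins. In GFP-crush against GFP-naive, mt-Nd2 rose (0.76) and mt-Atp6 fell (-1.76), again with overlapping libraries for mt-Atp6.

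Other nuclear genes of mitochondrial gene expression were grouped by role, and their shares can be set beside the 17.6% of all genes that fell and the 11.4% that rose. Of 13 translation factors 4 fell (30.8%) and 0 rose in α9k1-naive, with a median log2FC of -0.282, and Oxa1l, which inserts the new proteins into the inner membrane, had the lowest value (-0.84, SE 0.14, limma adjusted p = 0.000741). Of 25 assembly factors 5 fell (20%) and 0 rose, Mettl17 the most (-0.90, SE 0.21, limma adjusted p = 0.00614). Of 18 mitochondrial tRNA synthetases 1 fell (5.56%), Lars2 (-1.29, SE 0.19, limma adjusted p = 0.000234), and 1 rose, Tars2 (0.53, SE 0.14, limma adjusted p = 0.0113). Of 16 genes of mitochondrial transcription and RNA handling 4 fell (25%), with Polrmt, the mitochondrial RNA polymerase, lowest (-0.79, SE 0.19, limma adjusted p = 0.00686). Of 6 mitoribosomal subunits that carry another name, 2 fell (33.3%), including Gadd45gip1 (-0.41, SE 0.11, limma adjusted p = 0.0196). After crush the only gene of these 5 lists that passed between α9k1 and GFP was Lars2 (-2.01, SE 0.42, limma adjusted p = 0.0407).

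In GFP-crush against GFP-naive, where 7.39% of all genes rose and 15.7% fell, 3 assembly factors rose (12%) and 1 fell (4%), led by Ngrn (0.54, SE 0.10, limma adjusted p = 0.00364) and Gtpbp10 (-0.61, SE 0.19, limma adjusted p = 0.040). Gfm1, the elongation factor that moves the ribosome along the message, was the higher of 2 translation factors that rose (15.4% of the list), with a log2FC of 0.50 (SE 0.14, limma adjusted p = 0.0318). Of the tRNA synthetases 2 rose (11.1%) and 1 fell (5.56%), led by Sars2 (0.70, SE 0.14, limma adjusted p = 0.00608) and Yars2 (-0.85, SE 0.16, limma adjusted p = 0.00316). Sars2 and Mrps12, which start 172 bases apart, both rose. They were the only one of the 11 opposed pairs in which both genes rose, and in 5 of the 11 the 2 log2FC had the same sign. In α9k1-naive against GFP-naive the signs were the same in 8 of the 11, and Mrpl32 with Psma2 was the only pair in which both genes fell. In GFP-crush against GFP-naive Tfam, which packs and transcribes mitochondrial DNA, fell (-0.65, SE 0.16, limma adjusted p = 0.0174). In α9k1-crush against α9k1-naive the calls in these lists were Qrsl1 (1.004, SE 0.34, limma adjusted p = 0.0966) and Pnpt1 (0.98, SE 0.27, limma adjusted p = 0.0517), both higher, and mt-Co3, lower (-0.94, SE 0.31, limma adjusted p = 0.0886).

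**Figure D5:**
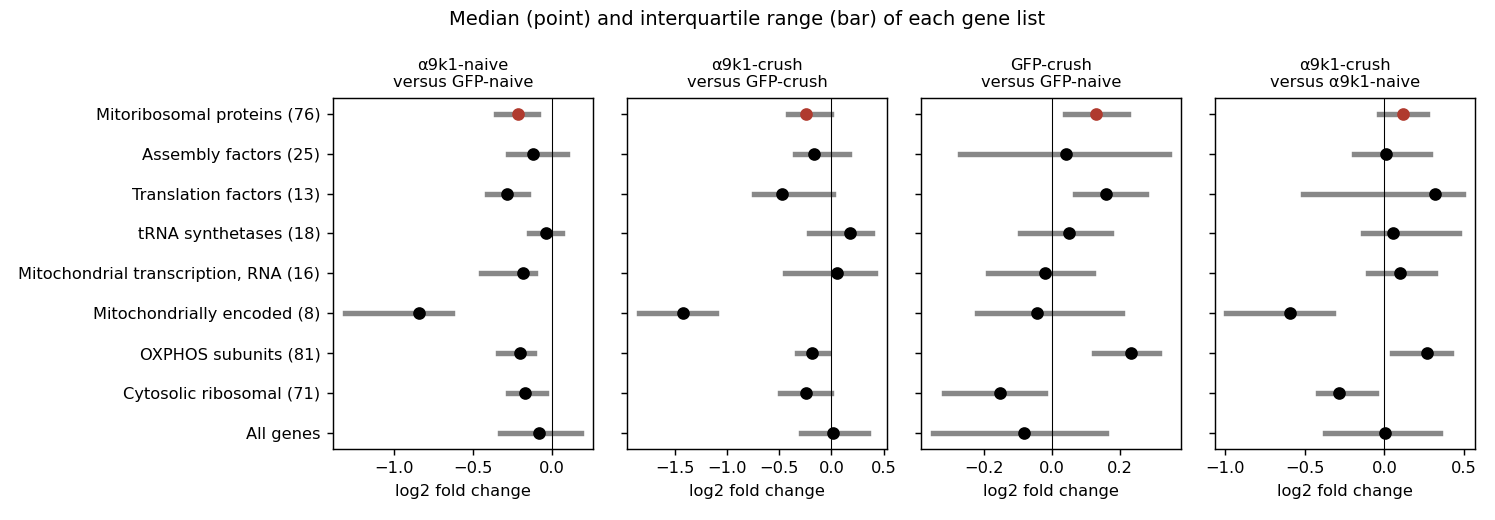
Median (point) and interquartile range (bar) of log2FC (x axis, own scale in each panel) for the 76 mitoribosomal genes (red point), the other lists and all genes. Of the lists shown, mitochondrially encoded messages lie lowest in both α9k1 comparisons, and in GFP-crush versus GFP-naive the mitoribosomal genes and the nuclear respiratory chain subunits lie above 0 while the cytosolic ribosomal proteins lie below it, at a median that is 0.017 without the covariates.

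The 2 lists most like the members are the proteins of the cytosolic ribosome and the nuclear subunits of oxidative phosphorylation, most of which work beside the products of the mitochondrial ribosome. In α9k1-naive, 28 of 81 respiratory subunits fell and 1 rose (median log2FC -0.202), and 16 of 71 cytosolic ribosomal proteins fell and 1 rose (median -0.172). These falls are 34.6% and 22.5% of the lists, against 17.6% of all genes. Without the covariates 63 and 60 were called lower, with medians of -0.373 and -0.490, beside -0.321 for the mitoribosomal genes and 29.5% of all genes lower. In α9k1-crush against GFP-crush, 0 of 81 and 1 of 71, Rpl39, were called lower, with medians of -0.191 and -0.246. Without the covariates 61 of 81 were called lower and 8 higher (median -0.566), and 67 of 71 lower and 1 higher (median -0.907), where 28.3% of all genes were lower and 29.6% higher. In GFP-crush against GFP-naive, 31 respiratory subunits rose and 2 fell (median 0.231), and 13 cytosolic ribosomal proteins fell and 0 rose (median -0.152). The 31 are 38.3% of their list, where 7.39% of all genes rose, and the 13 are 18.3%, near the 15.7% of all genes that fell. These counts depended on the setting. Without the covariates 54 respiratory subunits rose (66.7%), where 11% of all genes did, and with libraries set to the same median 54 rose too, against 14.5%. With the GC and length trend removed 26 rose (32.1% against 9.67%), but with quantile normalization only 8 did (9.88%), near the 9.55% of all genes. The cytosolic ribosomal proteins that fell were 3 without the covariates (4.23% against 20.1% of all genes), 5 with quantile normalization (7.04% against 10.9%), 3 with libraries set to the same median (4.23% against 9.34%, and 1 rose) and 9 with the GC and length trend removed (12.7% against 9.71%). The respiratory median was between 0.136 and 0.369 under these settings, whereas the cytosolic ribosomal median was -0.013 with libraries set to the same median and 0.017 without the covariates. Whether the lists differ from the mitoribosomal genes was not tested.

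Markers of other cell types were also called between these groups. In α9k1-naive against GFP-naive, 3 of 6 satellite glia markers rose, 5 of 6 Schwann cell markers fell, 4 of 5 macrophage markers rose, and 2 of 2 endothelial and 4 of 4 fibroblast markers fell, beside 11.4% of all genes higher and 17.6% lower. The summed satellite glia level was 15.55 to 15.93 in GFP-naive, 16.27 to 16.78 in α9k1-naive, 14.64 to 14.95 in GFP-crush and 14.11 to 14.68 in α9k1-crush. For Schwann cells it was 13.26 to 13.58, 11.87 to 12.25, 13.44 to 14.02 and 12.59 to 13.48 in the same order. For macrophages it was 6.80 to 7.39, 8.17 to 8.60, 8.58 to 9.17 and 8.20 to 9.20, for endothelial cells 6.01 to 6.58, 3.25 to 5.59, 5.96 to 6.92 and 3.13 to 5.54, and for fibroblasts 9.17 to 9.50, 6.31 to 8.03, 7.83 to 8.14 and 7.39 to 7.98. Among sensory neuron markers, 2 of 10 fell and 1 rose in α9k1-naive, shares near those of all genes, and 5 rose and 1 fell in GFP-crush against GFP-naive (7.39% and 15.7% of all genes). In that comparison 4 of 6 satellite glia and 3 of 4 fibroblast markers also fell, 4 of 5 macrophage markers rose, and of the Schwann cell markers 1 rose and 1 fell. In α9k1-crush against α9k1-naive 4 of 6 satellite glia markers fell, 4 of 6 Schwann cell and 3 of 4 fibroblast markers rose, and 2 neuronal, 1 macrophage and 1 endothelial marker rose, where 4.47% of all genes rose and 5.27% fell. Libraries overlapped for Flt1 (means 2.065 in α9k1-naive and 2.194 in α9k1-crush, log2FC 1.64), Dcn (5.421 and 5.9, log2FC 3.20) and Cd68 (4.99 and 5.546, log2FC 1.84). Without overlap, 5 satellite glia markers were lower (16.1% of all genes), and 4 neuronal, 4 Schwann cell, 2 fibroblast, 0 macrophage and 0 endothelial markers were higher (17.4%). In α9k1-crush against GFP-crush no marker on these lists was called, where 0.728% of all genes were called higher and 0.182% lower. By libraries that did not overlap, 3 neuronal markers were higher and 1 lower, and 1 macrophage marker was higher. Lower in this way were 2 satellite glia, 2 Schwann cell, 1 endothelial and 1 fibroblast marker. Of all genes 20% were higher and 20.8% lower without overlap. The part of these markers in the levels of the mitoribosomal genes was not tested.

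Within the members, log2FC in α9k1-naive against GFP-naive was lower in genes of lower mean level (Pearson r = 0.414, Spearman rho = 0.397 over 76 genes), while exon length (r = -0.063) and GC content (r = 0.127) had smaller values. These are descriptions across genes of the same libraries, which are not independent replicates. Members have shorter exonic length than all genes (median 2213.5 against 3767.5 bases) and near the same GC content (50.4% against 50.1%).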

How the data were processed

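The authors mapped reads to mm10 using STAR, dropped pairs split between chromosomes, quantified genes by Salmon, discarded genes with under 10 reads in over 80% of samples, took log2 with a small pseudocount and corrected length and depth effects by cqn. The deposited log2 values cover 12629 genes in 19 libraries and carry no gene names, so names were taken by row order from the authors' table of genes, which was checked with Fermt1 (difference rank 1) and Itga9 (rank 23). That table also holds the authors' own log2 fold changes, p-values and adjusted p-values, which were not used. The deposited Picard table holds counts of reads and bases, fractions, percent dropout values, coverage ratios and scores of other kinds, as deposited by the authors. At least 3 of its duplicate columns hold another quantity than their name says, and they entered the components as deposited. Counting error cannot be given from normalized values, and the SD between libraries includes it. The study calls the libraries biological replicates, and neither it nor the labels say how animals map to libraries, so p-values measure the spread between libraries.

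One limma 3.58.1 fit (R 4.3.3) took 4 group means and the first 3 components of 48 scaled metrics (45.9%, 24.1% and 11.5% of their variance, of which 34.5%, 52.2% and 74.5% lay between groups), with Benjamini-Hochberg adjustment over all genes and a threshold of 0.1. Batch, a term of the authors' model, is not in the labels and was left out. The members and lists were chosen with earlier results of these data known, and lists are described by counts and medians without a test. Values per library are given for the called members at either end of the log2FC order, up to 4 at each end, in each comparison (where none was called, the 2 with the smallest p in each direction), for the 3 highest and 3 lowest members by mean, and, from each other list, the called genes at both ends of the log2FC order may be named. Alternatives were no covariates, only the 2 groups compared, the 25% lowest genes removed, quantile normalization, libraries set to the same median, the GC and length trend removed, array weights, a replicate block and each library left out. The fitting script was tested on simulated data. Python 3.11.15, pandas 2.3.3, scipy 1.17.1 and matplotlib 3.10.9 made the tables and figures. Mrpl58 is named Ict1 in the table and counted among subunits with another name, and Mrps30 was not analysed here. Gene positions come from GENCODE M21 and promoters from RefSeq.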

Additional observations from a re-analysis of the deposited data

Results flagged for a closer look

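In 84 groups checked (20 named genes and the median of all members, in 4 groups each), 5 held a library far from the others, and chance alone gives about 1 in 20. In α9k1-naive, replicate 6 stood apart in 3 of the 5: Mrps2 at 3.12 against 3.74 to 4.08 in the other libraries, Mrps12 at 6.51 against 6.02 to 6.13, and the median of the 76 members at 6.07 against 5.67 to 5.82. It was lowest for Mrps2 and highest for Mrps12 and for the median. In GFP-crush, Mrps28 was 6.70 in replicate 1 against 6.92 to 6.95 in the others. Also in GFP-crush, Mrps12 was 6.97 in replicate 4 against 7.19 to 7.22 in the others.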

How the results depend on the processing

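The direction of the median log2FC of the 76 genes held in the 4 comparisons under every alternative. Without the covariates 60 members were lower in α9k1-naive (median -0.321), 57 lower and 2 higher in α9k1-crush against GFP-crush (-0.473), 21 higher in GFP-crush, 23 higher and 8 lower in α9k1-crush against α9k1-naive, and 14 lower and 1 higher in the interaction. With libraries set to the same median these were 15 lower and 2 higher in α9k1-naive, 28 higher in GFP-crush (median 0.268), 0 higher in α9k1-crush against α9k1-naive, and an interaction median of -0.177. That scaling turned the split of all genes in GFP-crush from 933 higher and 1984 lower to 1826 and 1180 (quantile normalization 1206 and 1373, GC and length trend removed 1220 and 1225), and that in α9k1-naive from 1445 and 2224 to 1654 and 1725 (1622 and 1956, 1714 and 1797). Removing the GC and length trend left 14 lower and 2 higher in α9k1-naive and 10 higher in GFP-crush (13.2% against 9.67% of all genes). Quantile normalization gave 0 higher in α9k1-naive (12.8% of all genes) and 13 higher in GFP-crush (17.1% against 9.55%). Fits of only the 2 groups compared gave 0 higher in α9k1-naive, GFP-crush and α9k1-crush against α9k1-naive (9.45%, 2.07% and 0.507% of all genes). Array weights gave 2 higher in the last (2.63% against 7.63% of all genes). Reversed values were Mrpl33 (-0.064) and Mrpl18 (-0.552) without the covariates, and Mrps10 with only the 2 groups (-0.390) and with the replicate block (-0.029). The cause was not tested.

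Leaving out a library gave 0 to 1 members higher and 14 to 23 lower in α9k1-naive (median -0.274 to -0.178), 0 called in α9k1-crush against GFP-crush (-0.309 to -0.092, the last without GFP-crush replicate 2), 0 to 12 higher and 0 to 1 lower in GFP-crush (0.111 to 0.158), 0 to 2 higher and 0 to 1 lower in α9k1-crush against α9k1-naive (0.083 to 0.165), and an interaction median of -0.114 to 0.069. Of 144 values of named genes under the other alternatives, 120 kept direction and call, 15 lost the call, 5 gained one and 4 reversed.

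Same-numbered libraries did not deviate together (25 pairs, r from -0.269 to 0.149, 4 above 0.1, and 3 of 19 libraries correlated best with their own number). These correlations gave no sign of pairing by number, but they cannot show that equal numbers share no batch or animal. The replicate block gave 15 lower and 0 higher in α9k1-naive (10.4% and 8.96% of all genes), 0 higher in α9k1-crush against α9k1-naive (1.23% of all genes) and a median of -0.334 in α9k1-crush against GFP-crush. It also turned the interaction median of the members from -0.048 to 0.03.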
